A study of Mus musculus with 6 samples.

Results

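Of the 32285 genes counted in c-Kit+ bone marrow cells, 8 were followed, namely Lipg, Lpl, Pla2g7, Mgll, Mogat2, Plin2, Fabp5 and Cd36, a set of lipid enzymes and lipid carriers. They were chosen around Lipg, Lpl, Fabp5 and Mogat2, whose levels in granulocyte-monocyte progenitors (GMPs) had been seen to move with tumor or drug, so their values in GMPs are given as a description. The marrow came from female BALB/c mice aged 10 weeks at harvest and was enriched for c-Kit+ cells on magnetic beads. The 3 groups of 3 mice were non-tumor-bearing mice (NTB), mice bearing 4T1 tumors that received the vehicle control (vehicle), and mice bearing 4T1 tumors that received brequinar (BRQ) at 10 mg/kg i.p. daily. 4T1 is a mouse mammary carcinoma line implanted into the mammary fat pad, and BRQ inhibits DHODH, an enzyme of pyrimidine synthesis. NTB mice had neither tumor nor drug, and no group received BRQ without a tumor, so a BRQ effect in the absence of a tumor was not measured. Each of the 3 pools held 1 mouse of each group, told apart by a hashtag antibody.

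Lipoproteins in the blood carry triglyceride and phospholipid, which lipases anchored at the cell surface cleave so that fatty acids can enter the cell. Inside the cell, binding proteins carry fatty acids, acyltransferases rebuild them into glycerides, and droplets coated by perilipins store them until lipases release them. In the marrow, myeloid progenitors are known to adjust this handling of lipid as they mature into neutrophils and macrophages.

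Of the 8 genes, Lipg encodes endothelial lipase, which cleaves mainly phospholipids of high-density lipoprotein, and Lpl encodes lipoprotein lipase, which cleaves lipoprotein triglyceride. Pla2g7 encodes the secreted platelet-activating factor acetylhydrolase, and Mgll encodes monoglyceride lipase, which completes the breakdown of triglyceride to glycerol and fatty acid. Mogat2 encodes a monoacylglycerol acyltransferase, Plin2 a coat protein of lipid droplets, Fabp5 a cytosolic fatty acid-binding protein, and Cd36 a surface receptor that takes up fatty acids and oxidized lipoprotein.

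Promoter sequences were read from RefSeq (GRCm38.p6), in which 4 of the 8 genes had an entry. Pla2g7, Mgll and Plin2 are shown as the genes with an entry that could be tested in the neutrophil-like cells described later, in which Pla2g7 rose and Mgll fell in vehicle against NTB. Each line holds the 250 bases before the annotated start, 5′ to 3′ on the gene's strand. Capitals mark the single match, on either strand, to any of the motifs searched: the TATA box (TATAAA), the CCAAT box (CCAAT), the GC box (GGGCGG), the E-box (CACGTG), a C/EBP motif (TTGCNNAA), a PU.1 motif (GAGGAAGT) and the DR1 motif. The match was a GC box on the opposite strand at position -13 for Pla2g7, at chr17:43568201-43568450 on the plus strand. It was an E-box at -44 for Mgll, at chr6:88724162-88724411 on the plus strand. For Plin2, at chr4:86670060-86670309 on the minus strand, it was a CCAAT box at -73.
Pla2g7: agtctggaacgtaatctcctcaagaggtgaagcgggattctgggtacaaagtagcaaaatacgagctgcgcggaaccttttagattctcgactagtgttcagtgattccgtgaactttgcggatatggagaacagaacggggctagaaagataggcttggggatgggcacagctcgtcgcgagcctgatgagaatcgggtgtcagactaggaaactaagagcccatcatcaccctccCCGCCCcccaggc
Mgll: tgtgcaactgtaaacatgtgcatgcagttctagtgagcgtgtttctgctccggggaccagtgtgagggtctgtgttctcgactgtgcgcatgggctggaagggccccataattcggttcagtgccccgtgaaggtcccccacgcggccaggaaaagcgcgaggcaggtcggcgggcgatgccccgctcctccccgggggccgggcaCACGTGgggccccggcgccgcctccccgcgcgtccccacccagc
Plin2: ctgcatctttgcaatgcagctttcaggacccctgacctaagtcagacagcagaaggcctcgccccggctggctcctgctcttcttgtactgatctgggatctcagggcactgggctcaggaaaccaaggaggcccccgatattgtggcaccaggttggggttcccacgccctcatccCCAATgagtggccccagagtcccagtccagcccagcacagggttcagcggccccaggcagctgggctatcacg
Among 32851 promoters of the same length, 32.74% held a GC box, 6.021% this E-box and 33.85% a CCAAT box. The TATA box was in 12.37%, the C/EBP motif in 9.564%, the PU.1 motif in 2.441% and the DR1 motif in 0.03348%. A match describes these letters and says nothing of a factor bound there.

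The 3 pools held 39488 cell barcodes, with 100700982 to 135564079 gene UMIs per pool (unique molecular identifiers, 1 per captured RNA molecule). After the limits on genes and mitochondrial RNA, 32762 cells remained, of which 15966 carried 1 hashtag. Among the cells that remained, 93 barcodes were shared by 2 pools. Between 33.1% and 52.19% of the barcodes in a pool had no hashtag call, which lowered the cell numbers and left 382 to 2780 cells per mouse. GMPs were the 3916 cells with Ms4a3, a marker of this stage, above a fixed limit, whatever their cluster. Cells of other clusters were thus among them, as 8.75% of all cells in the macrophage-like cluster and 21.8% in the eosinophil-like cluster passed the limit. GMPs numbered 88 to 177 in each NTB mouse, 95 to 1017 in each vehicle mouse and 653 to 806 in each BRQ mouse, so the NTB values rested on the fewest cells. All 6 GMP markers were detected in them, and their summed level was 37460 to 42370 CPM (UMIs per 1000000 UMIs) in NTB, 38660 to 39810 in vehicle and 31430 to 39870 in BRQ. The neutrophil marker list was summed to 47610 to 51100, 35000 to 38610 and 27690 to 39340 in the same order. The monocyte list (8 markers, none at 0) was summed to 55.1 to 71.5 in NTB, 54.9 to 68.9 in vehicle and 99.9 to 151.6 in BRQ, and the HSC/MPP list (9 markers, none at 0) to 51.7 to 54.1, 53.0 to 54.7 and 82.9 to 103.1, so BRQ GMPs lay above the other groups on both. The part of these differences in the results on GMPs was not tested. BRQ mouse 3 stood apart with 40.7% of its GMPs in 1 cluster (cluster 10) that held at most 9.55% in any other mouse. Kit, the RNA of the protein used for enrichment, was at 60.3 CPM in GMPs, 241.4 in cells like hematopoietic stem cells and multipotent progenitors (HSC/MPP-like) and 27.2 in neutrophil-like cells.

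**Figure D1:**
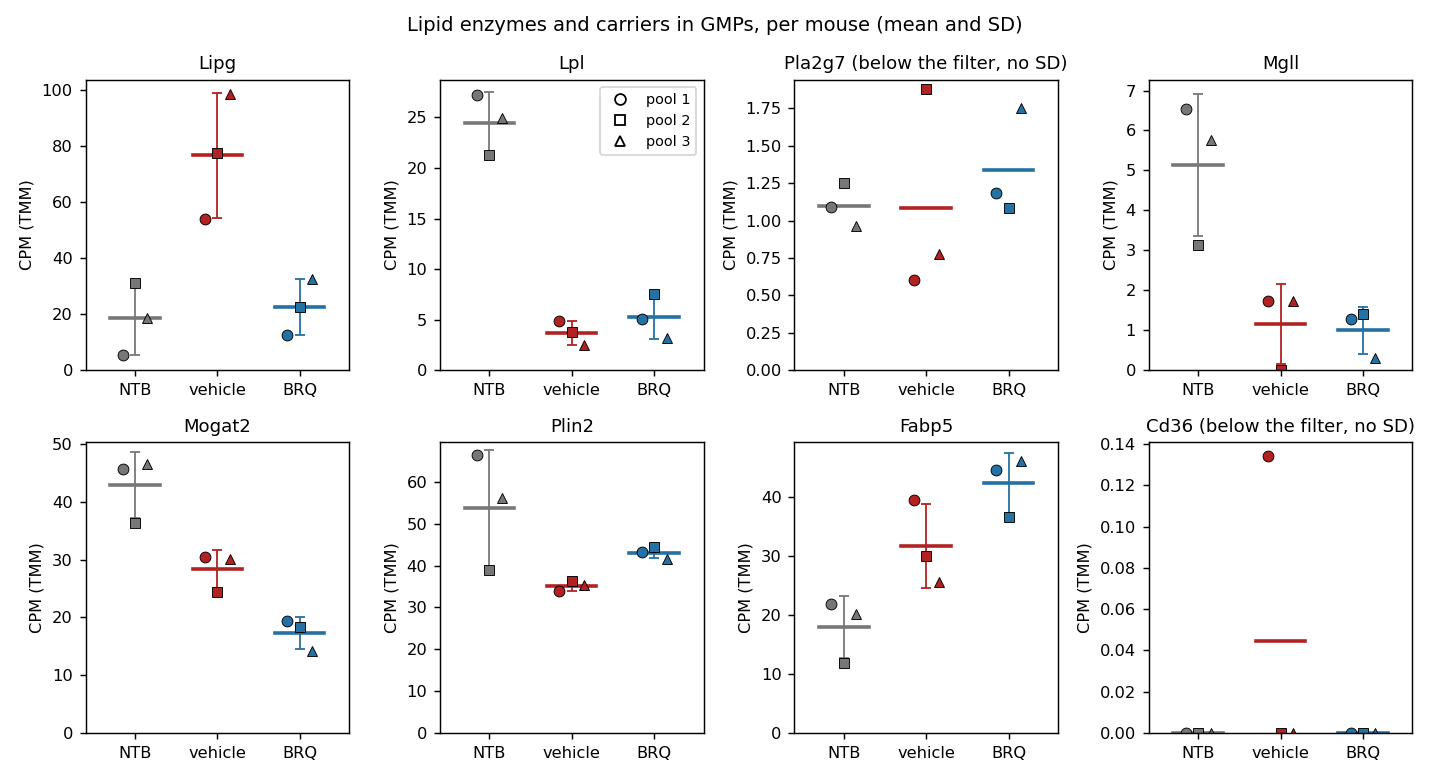
Level of each gene in GMPs in CPM on the TMM scale (vertical axis) for NTB, vehicle and BRQ mice, with 1 point per mouse, the symbol giving the pool, and bars giving the mean and SD of 3 mice. Lipg was higher in every vehicle mouse (54.0 to 98.6) than in any NTB (5.44 to 31.3) or BRQ mouse (12.5 to 32.7), and Lpl was lower in all tumor-bearing mice (2.52 to 7.57) than in NTB (21.3 to 27.2).

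In GMPs, summed per mouse and scaled to CPM, Lipg stood at 5.44, 31.3 and 18.7 in NTB mice 1, 2 and 3. It was 54.0, 77.6 and 98.6 in vehicle mice 1, 2 and 3, and 12.5, 22.6 and 32.7 in BRQ mice 1, 2 and 3. All vehicle mice lay above all NTB and BRQ mice, while NTB and BRQ overlapped. The log2 fold change of Lipg was 1.88 ± 0.35 (SE, n = 3 per group, as in all comparisons of GMPs) for vehicle against NTB, -1.71 ± 0.24 for BRQ against vehicle and 0.17 ± 0.38 for BRQ against NTB. Lpl showed another pattern, with 27.2, 21.3 and 24.99 CPM in NTB, then 4.90, 3.75 and 2.52 in vehicle, and 5.09, 7.57 and 3.18 in BRQ. Both groups with tumors lay below all NTB mice and overlapped each other. Its log2 fold changes were -2.56 ± 0.30, 0.33 ± 0.28 and -2.23 ± 0.27 in the order vehicle against NTB, BRQ against vehicle and BRQ against NTB, which is kept below.

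Mogat2 in GMPs was at 45.7, 36.3 and 46.6 CPM in NTB mice, 30.5, 24.4 and 30.04 in vehicle mice and 19.4, 18.3 and 14.2 in BRQ mice. The groups formed 3 steps without overlap, with log2 fold changes of -0.54 ± 0.15, -0.77 ± 0.13 and -1.31 ± 0.15. Fabp5 was at 21.8, 11.9 and 20.2 in NTB, then 39.4, 30.03 and 25.6 in vehicle, and 44.5, 36.5 and 46.0 in BRQ. NTB lay below both tumor-bearing groups, vehicle and BRQ overlapped, and the log2 fold changes were 0.91 ± 0.22, 0.36 ± 0.14 and 1.27 ± 0.21. Monocyte-like and HSC/MPP-like cells had more Fabp5 than GMPs, and the part of their RNA, higher in BRQ GMPs by the marker lists, was not tested. Plin2 was at 66.4, 38.8 and 56.2 in NTB mice, 33.9, 36.3 and 35.3 in vehicle mice and 43.3, 44.4 and 41.7 in BRQ mice. Its vehicle values lay below those of the other groups, and its log2 fold changes were -0.59 ± 0.14, 0.31 ± 0.11 and -0.29 ± 0.13.

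Mgll, Pla2g7 and Cd36 were near the detection limit in GMPs. Mgll was at 6.53, 3.13 and 5.77 CPM in NTB, then 1.74, 0 and 1.74 in vehicle, and 1.27, 1.41 and 0.318 in BRQ, and its log2 fold changes were -1.66 ± 0.54, -0.71 ± 0.48 and -2.37 ± 0.55. Pla2g7 was summed to 66 UMIs over all GMPs, or 1.14 CPM, and Cd36 to 2 UMIs, or 0.0346 CPM. Pla2g7 and Cd36 did not pass the filter on low counts, which left 6 of the 8 genes in the fit.

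The edgeR quasi-likelihood test, with Benjamini-Hochberg adjustment over all 10331 genes tested in GMPs, placed 6 of these 6 genes under an adjusted p of 0.05 for vehicle against NTB, beside 11.3% of all genes. It placed 2 (Lipg and Mogat2) there for BRQ against vehicle, beside 13.4%, and 4 for BRQ against NTB, beside 6.01%. With the pool as a block, the count for BRQ against vehicle was 4. As the genes were chosen on these values, nothing is read from the counts. The comparisons share mice: vehicle mice enter the first and the second, NTB mice the first and the third, and BRQ mice the second and the third. Without NTB mouse 3 the first count was 3, and without vehicle mouse 1 it was also 3.

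Within GMPs of a single cluster, the largest clusters being 0 and 1, Lipg was higher in vehicle than in NTB by 2.04 on the log2 scale in cluster 0 and by 2.52 in cluster 1. Lpl was lower, with -2.15 and -2.61. Fabp5 was higher by 0.28 in cluster 0, less than over all GMPs, and cluster 6, where its pooled level was 108.3 CPM against 28.1 in cluster 0 and 8.28 in cluster 1, held 1.14 to 3.39% of NTB, 5.54 to 8.55% of vehicle and 12.04 to 21.1% of BRQ GMPs. The log2 fold change of Mogat2 for vehicle against NTB was -0.17 in cluster 0 and -0.40 in cluster 1, with overlap in both. For BRQ against vehicle it was -0.91 and -0.32, also with overlap. For BRQ against NTB it was -1.08 and -0.72, without overlap in either cluster. The mean level stepped down from NTB over vehicle to BRQ in both, from 31.7 over 25.02 to 15.1 CPM in cluster 0 and from 61.2 over 47.2 to 35.7 in cluster 1, and in the GMP-like clusters as a whole vehicle against NTB was -0.05. Cluster 1, with higher mean Mogat2 and Lipg than cluster 0 in each group, held 30.7 to 38.5% of NTB GMPs. It held 15.6 to 21.1% of vehicle and 8.88 to 25.8% of BRQ GMPs, and the part of these shares was not tested.

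The share of GMPs with a UMI gave the same order for Lipg. With each cell thinned to 1000 UMIs, leaving out 8, 8 and 4 shallower cells in NTB, vehicle and BRQ, Lipg was found in 1.53% of 392 NTB, 5.96% of 1393 vehicle and 2.46% of 2111 BRQ GMPs. The unthinned shares were 9.75%, 32.9% and 13.6%, at median depths of 10828 to 11581, 14737 to 17966 and 12168 to 15795 UMIs per cell over the mice of each group. In thinned B progenitor-like cells, which should lack the gene, Lipg was found in 0 of 65, 1 of 55 and 1 of 101 cells. The thinned share of GMPs with Lpl was 3.32% in NTB, 0.359% in vehicle and 0.474% in BRQ. In thinned B progenitor-like cells Lpl was found in 0 of 65, 1 of 55 and 2 of 101 cells. The intervals for counting error were 0 to 5.52%, 0.046 to 9.72% and 0.241 to 6.97% of these cells. They are too wide to place the GMP shares of Lpl above or below this background, and the same holds for Lipg.

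The genes lie apart in the genome. In GRCm38 (GENCODE vM21) Lpl spans chr8:68880491-68907448 on the plus strand, Mogat2 chr7:99219084-99238619 on the minus strand, Fabp5 chr3:10012548-10016607 on the plus strand and Cd36 chr5:17781690-17888801 on the minus strand. Counts from a 3' library are summed over each gene and do not separate its exons or transcripts.

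Lpl is also a gene of marrow macrophages, and its pooled level in macrophage-like cells was 821.7 CPM, against 6.38 in GMPs (23.55 in NTB, 3.99 in vehicle and 5.51 in BRQ). RNA of the complement genes C1qa, C1qb and C1qc, which mark macrophages, was therefore summed beside it. In macrophage-like cells, C1q exceeded Lpl by a ratio of 5.24 in NTB, 5.82 in vehicle and 8.08 in BRQ. In GMPs the ratio was 0.396, 0.413 and 0.548, so Lpl exceeded C1q there. All of the C1q RNA in GMPs amounted to 9.34 CPM in NTB, 1.65 in vehicle and 3.02 in BRQ, which moved in the same direction as Lpl. Cells of the macrophage-like cluster above the Ms4a3 limit were counted as GMPs. That cluster held 19, 17 and 55 cells in NTB mice, 19, 4 and 5 in vehicle mice and 43, 16 and 26 in BRQ mice. Those left as macrophage-like were 15, 17 and 52, then 17, 4 and 3, then 38, 13 and 25. The part of the cells counted as GMPs was not tested. The whole list of 10 macrophage markers, of which Mertk was at 0, was summed to 371.3 to 394.0 CPM in NTB GMPs, 240.6 to 249.0 in vehicle and 170.1 to 298.3 in BRQ. The median marker was at 0.778 CPM over all GMPs, so a few genes carried the sum. The list holds Vcam1, a top gene of cluster 1 (led by Fcnb), so the sum is not read as macrophage RNA alone. The part of macrophage RNA in the Lpl values was not tested.

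**Figure D2:**
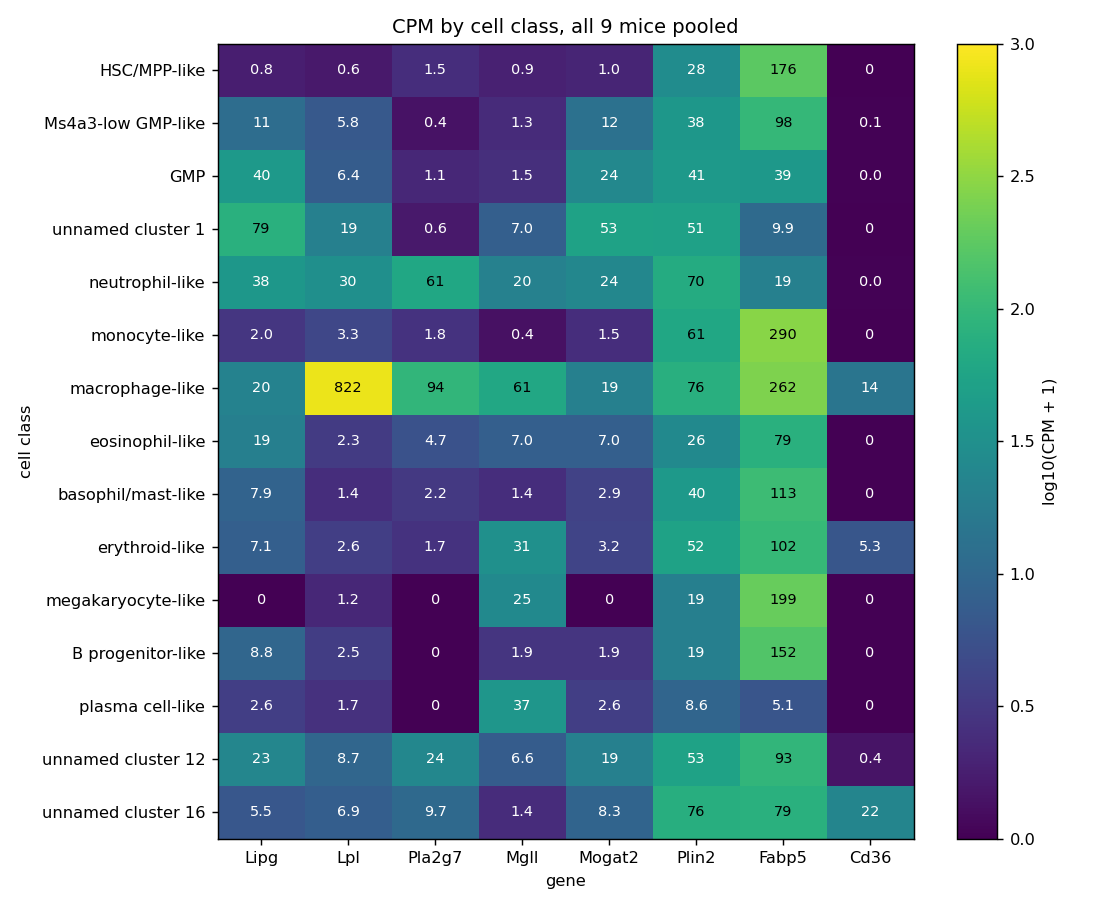
CPM of each gene (columns) in each cell class (rows), with the cells of all 9 mice pooled, and colors on a log10 scale of the value plus 1. Lipg and Mogat2 shared their highest row, the unnamed cluster 1 (79.2 and 52.7), an order that did not hold for Lipg in NTB cells alone (12.6 there and 19.95 in GMPs), whereas Lpl, Pla2g7 and Mgll were highest in macrophage-like cells (821.7, 93.7 and 61.1). For Pla2g7 this did not hold in vehicle cells alone, where neutrophil-like cells were higher.

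Each gene had its own order over the 15 cell classes with enough cells, given here as pooled CPM with Poisson 95% intervals that cover counting error only. These levels compare classes for 1 gene and not genes with each other. They also weight the groups by their cells, and NTB gave 400 of 3916 GMPs but 1548 of 3917 neutrophil-like cells, so the order is given by group where it changed. Pooled, Lipg was highest in an unnamed cluster led by Fcnb (cluster 1) at 79.2 (74.2 to 84.6), in which 44.19% of all cells were above the Ms4a3 limit and were counted with the GMPs instead. GMPs at 39.6 (38.0 to 41.2) and neutrophil-like cells at 37.7 (35.1 to 40.4) followed with overlapping intervals. GMP-like cells below the Ms4a3 limit were at 10.9, monocyte-like cells at 1.97 and HSC/MPP-like cells at 0.774. By group, Lipg in the unnamed cluster 1 was at 12.6 in NTB, 193.2 in vehicle and 70.0 in BRQ, in GMPs at 19.95, 62.4 and 25.2, and in neutrophil-like cells at 8.09, 92.8 and 54.7. GMPs were the highest of the 3 in NTB, with an interval that met that of cluster 1, and the lowest in BRQ. In vehicle no order of GMPs and neutrophil-like cells is read, because at 1000 UMIs per cell Lipg was in 5.96% of the former and 4.10% of the latter, and vehicle mouse 1 gave 1017 of the 1401 GMPs.

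Mogat2 ran in a like order, with 52.7 (48.5 to 57.0) in the unnamed cluster 1, 24.3 (23.0 to 25.6) in GMPs, 23.6 (21.6 to 25.8) in neutrophil-like cells and 1.03 in HSC/MPP-like cells. Within each group, Mogat2 was higher in GMPs (41.8 in NTB, 28.1 in vehicle and 18.6 in BRQ) than in neutrophil-like cells (29.5, 20.3 and 15.5), although the pooled intervals overlapped. Pooled Fabp5 ran the other way within the granulocyte lineage. It was 175.9 in HSC/MPP-like cells, 98.2 in GMP-like cells below the Ms4a3 limit, 38.9 in GMPs, 19.2 in neutrophil-like cells and 9.92 in the unnamed cluster 1. By group, Fabp5 was at 17.2 in GMPs and 7.53 in neutrophil-like cells of NTB mice, at 33.3 and 33.4 for vehicle mice, and at 46.7 and 30.8 for BRQ mice, so the step between these classes was absent in vehicle. At 1000 UMIs per cell, the share of cells with Fabp5 was 2.37% in GMPs and 6.76% in neutrophil-like cells of vehicle mice and 3.93% and 5.92% in BRQ mice, and no order is read where the share goes against the level. The highest Fabp5 level was in monocyte-like cells at 290.5 (284.2 to 296.8), next to macrophage-like cells at 262.1 (226.5 to 301.8), and these intervals overlapped. In BRQ the macrophage-like cells were higher, at 460.1 against 266.2, and in NTB lower, at 90.7 against 279.6.

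Lpl in macrophage-like cells, at 821.7 (757.5 to 889.9), was followed by neutrophil-like cells at 29.8, the unnamed cluster 1 at 19.2 and GMPs at 6.38. Pooled Pla2g7 was at 93.7 in macrophage-like cells, 60.7 in neutrophil-like cells and 1.14 in GMPs. By group, macrophage-like cells were at 67.3 in NTB, 62.5 in vehicle and 138.0 in BRQ and neutrophil-like cells at 6.59, 181.4 and 79.6, so the order turned in vehicle. Mgll was at 61.1 in macrophage-like cells, 36.8 in plasma cell-like cells, 31.1 in erythroid-like cells, 19.8 in neutrophil-like cells and 1.54 in GMPs. Plin2 varied least by the ratio of its highest to its lowest level, from 8.55 in plasma cell-like cells to 76.1 in macrophage-like cells, with GMPs at 41.4. Cd36 was at 22.1 in an unnamed cluster with MHC class II genes (cluster 16), 13.6 in macrophage-like cells and 5.35 in erythroid-like cells. It was at 0 in monocyte-like and HSC/MPP-like cells, where 3 counts would have been 0.107 and 0.258 CPM.

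**Figure D3:**
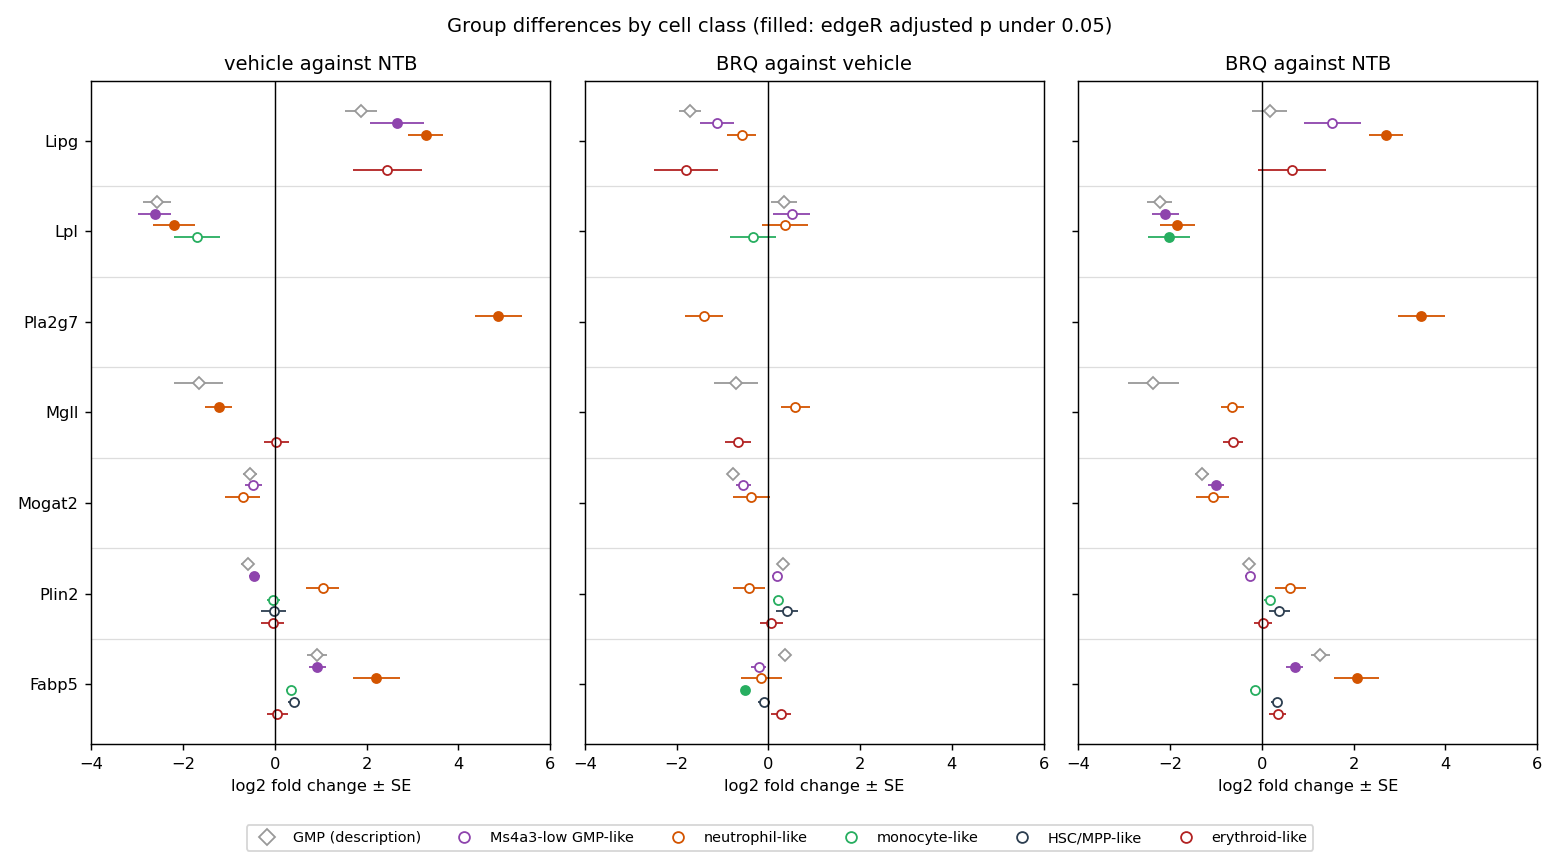
Log2 fold change with its SE (horizontal axis) of each gene (rows) in the 3 comparisons, by cell class (color), with filled circles for an adjusted p under 0.05 in the edgeR test and gray diamonds for GMPs, whose calls are not marked because the genes were chosen there. For Lpl, all classes fitted lay on the left of 0 for vehicle against NTB and for BRQ against NTB, and for Pla2g7 the neutrophil-like cells lay at 4.87 and 3.47.

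The same genes were then tested in 5 other classes, whose cells came from the same mice and libraries. The genes were chosen with earlier results of these data known. It is not shown that these classes took no part in the choice, so the calls are not read as independent support. Over these classes, 21 tests per comparison could be made. For vehicle against NTB, 9 were called (5 higher and 4 lower), for BRQ against vehicle 1 (lower), and for BRQ against NTB 8 (4 higher and 4 lower). The share of all genes called ran from 0% to 15.2% over the classes and comparisons and stands beside each class. Without NTB mouse 3 the counts were 6, 1 and 2, without NTB mouse 2 the third was 5, and without BRQ mouse 3 the second was 3. All p-values given for these classes are from the edgeR quasi-likelihood test, adjusted over all genes of the class.

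The nearest class was the GMP-like cells below the Ms4a3 limit, with 55 to 460 cells per mouse. Of 5 genes tested, 4 were called for vehicle against NTB, beside 13.8% of all genes there. None was called for BRQ against vehicle with edgeR, beside 6.39%, where 2 had an unadjusted p under 0.05 and DESeq2 called 0 and gave 3 no adjusted p, and 3 were called for BRQ against NTB, beside 7.35%. DESeq2 called 0 of the 5 for vehicle against NTB and gave 2 of them, Lipg and Lpl, no adjusted p. The HSC/MPP marker list was summed to 128.1 to 149.2 CPM in NTB, 126.4 to 149.2 in vehicle and 197.0 to 232.4 in BRQ, and its part in the BRQ values was not tested. The macrophage list (10 markers, Mertk at 0, median marker at 0.456 CPM) was summed to 134.3 to 239.9 in NTB, 119.5 to 132.6 in vehicle and 103.6 to 155.0 in BRQ, and C1q to 1.96, 1.06 and 1.64, which was lower with Lpl in the tumor-bearing groups, and the part of macrophage RNA was not tested.

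Lipg in these cells was at 0.950, 3.89 and 2.89 CPM in NTB mice, 16.5, 7.58 and 24.4 in vehicle mice and 2.43, 4.40 and 16.4 in BRQ mice. All vehicle mice were above all NTB mice, and BRQ overlapped both. Lipg rose in vehicle over NTB (log2 fold change 2.66 ± 0.59, adjusted p = 0.00372), and the difference of BRQ from vehicle did not pass the test (-1.12 ± 0.37, adjusted p = 0.0715). With the pool as a block, Lipg was lower in BRQ than in vehicle (-1.19, adjusted p = 0.000138) and higher than in NTB (1.68, adjusted p = 0.00148, against 0.148 without the block). Lpl was at 11.4, 18.5 and 16.8 in NTB, then 2.57, 3.25 and 2.57 in vehicle, and 4.85, 5.38 and 1.65 in BRQ. It fell in both groups with tumors, by 2.62 ± 0.36 (adjusted p = 3.78e-05) in vehicle and by 2.11 ± 0.30 (adjusted p = 9.47e-05) in BRQ.

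Mogat2 was at 15.2, 17.5 and 19.2 in NTB mice, 12.4, 15.2 and 13.1 in vehicle mice and 9.18, 8.80 and 8.70 in BRQ mice. BRQ mice were the lowest without overlap, and the difference from NTB passed the test (-1.01 ± 0.18, adjusted p = 0.000723), whereas that from vehicle passed only with the pool as a block (-0.54 ± 0.17, adjusted p = 0.0569, and -0.56, adjusted p = 0.0382, with it). Fabp5 was at 97.8, 64.1 and 40.0 in NTB, then 128.9, 114.7 and 97.7 in vehicle, and 114.4, 91.1 and 90.7 in BRQ. The groups overlapped at NTB mouse 1, although the test called vehicle (0.93 ± 0.18, adjusted p = 0.00165) and BRQ (0.71 ± 0.18, adjusted p = 0.0132) higher than NTB. The BRQ call was lost without NTB mouse 2, NTB mouse 3 or BRQ mouse 1, with adjusted p of 0.056, 0.282 and 0.0676, and both were lost with DESeq2, with 0.0898 and 0.436. Plin2 fell by 0.45 ± 0.12 in vehicle against NTB (adjusted p = 0.0164), a call lost without NTB mouse 3, vehicle mouse 1 or vehicle mouse 3 (0.143, 0.101 and 0.0636) and with DESeq2 (0.071).

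Neutrophil-like cells, with 113 to 987 cells per mouse, had 7 genes tested. For vehicle against NTB, 5 were called, beside 15.2% of all genes. None was called for BRQ against vehicle, beside 0.0345%, where 1 had an unadjusted p under 0.05 and DESeq2 called 0. For BRQ against NTB, 4 were called, beside 6.94%. These shares rested on single mice. Of all genes, 603 were called for BRQ against NTB and 0 without NTB mouse 3 (1325 at an unadjusted p under 0.05), and 3 were called for BRQ against vehicle and 258 without BRQ mouse 3. Markers of other cells moved as well. The macrophage list (10 markers, none at 0) was summed to 178.6 to 205.5 CPM in NTB, 240.6 to 462.4 in vehicle and 208.9 to 344.8 in BRQ, and the monocyte list (8 markers, none at 0) to 21.6 to 40.4, 51.7 to 124.9 and 42.5 to 104.6, both with NTB lowest. The median macrophage marker was at 1.48 CPM, so a few genes carried that sum, and C1q was at 5.27, 8.68 and 3.74 CPM in NTB, vehicle and BRQ. The neutrophil list was at 380200 to 386500, 269800 to 326200 and 245600 to 305500. Pla2g7 and Fabp5 are high in macrophage-like cells, and the part of these differences in the calls was not tested. The clusters within this class shifted with the groups. Cluster 2, led by Wfdc17, Retnlg and Il1b, held 5.17 to 8.26% of the neutrophil-like cells of NTB mice, 60.9 to 87.6% in vehicle and 42.1 to 76.5% in BRQ, whereas cluster 3, led by Ltf, Camp and Ngp, held 44.2 to 52.1%, 4.70 to 12.5% and 4.11 to 20.2%. The median depth was 6044.5 to 6707 UMIs per cell in NTB, 1581 to 2183 in vehicle and 2650.5 to 4290.5 in BRQ. Clusters 2, 3 and 9 (the latter led by Mmp8 and Mmp9) were therefore also fitted apart, in mice with at least 20 cells, a step chosen after seeing the data. The remaining cluster 7, with 25.8 to 33.6% of NTB, 2.78 to 17.6% of vehicle and 4.57 to 22.6% of BRQ neutrophil-like cells, could not be fitted, since only vehicle mouse 1 had enough cells among the vehicle mice.

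Lipg in neutrophil-like cells was at 10.9, 9.05 and 7.49 CPM in NTB mice, 112.4, 47.1 and 76.6 in vehicle mice and 34.8, 51.5 and 83.9 in BRQ mice. NTB lay below all other mice, and vehicle and BRQ overlapped. Lipg rose by 3.29 ± 0.38 on the log2 scale in vehicle (adjusted p = 0.000805) and by 2.71 ± 0.37 in BRQ (adjusted p = 0.00409, and 0.0712 without NTB mouse 3). BRQ against vehicle was -0.58 ± 0.32 (adjusted p = 0.671). Within cluster 3, Lipg was at 7.39, 7.30 and 5.78 in NTB, 86.7 and 65.7 in vehicle mice 1 and 3 and 22.7 and 48.7 in BRQ mice 1 and 2, and vehicle was higher than NTB by 3.66 ± 0.37 (adjusted p = 6.36e-08). Within cluster 9 it was at 13.2 and 6.59 in NTB mice 2 and 3, 182.2 and 119.2 in vehicle mice 1 and 3, and 55.5, 27.4 and 102.7 in BRQ, with 4.09 ± 0.52 for vehicle against NTB (adjusted p = 1.18e-06). Within cluster 2 the difference had the opposite sign and did not pass the test (-1.25 ± 0.86, adjusted p = 0.588). BRQ was below vehicle without overlap in cluster 3 (-1.28 ± 0.34, adjusted p = 0.181) and in cluster 9 (-1.28 ± 0.34, adjusted p = 0.0538), larger than over the whole class but not past the test, and above NTB in both (2.38, adjusted p = 9.48e-05, and 2.82, adjusted p = 0.000217).

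Pla2g7 showed the largest fitted difference of the 8 genes among the classes tested. It was at 7.26, 11.1 and 4.70 CPM in NTB, then 102.6, 255.0 and 300.2 in vehicle, and 64.8, 52.0 and 129.7 in BRQ neutrophil-like cells. NTB lay below all other mice, and the log2 fold changes were 4.87 ± 0.52 (adjusted p = 0.000805) for vehicle and 3.47 ± 0.51 (adjusted p = 0.00423, and 0.0712 without NTB mouse 3) for BRQ against NTB. Within cluster 2, Pla2g7 was already at 492.3 and 234.4 in NTB mice 2 and 3, beside 454.7, 496.7 and 496.8 in vehicle and 394.7, 355.8 and 269.5 in BRQ. There vehicle did not pass the test against NTB (0.50 ± 0.24, adjusted p = 0.355), and BRQ was lower than vehicle (-0.53 ± 0.16, adjusted p = 0.0411). In clusters 3 and 9 it was between 0 and 5.97 CPM in every mouse. The share of cells in cluster 2 was higher in vehicle and BRQ than in NTB, and its part in the rise over the whole class was not tested. Within cluster 2 the comparisons with NTB rested on 2 NTB mice.

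**Figure D4:**
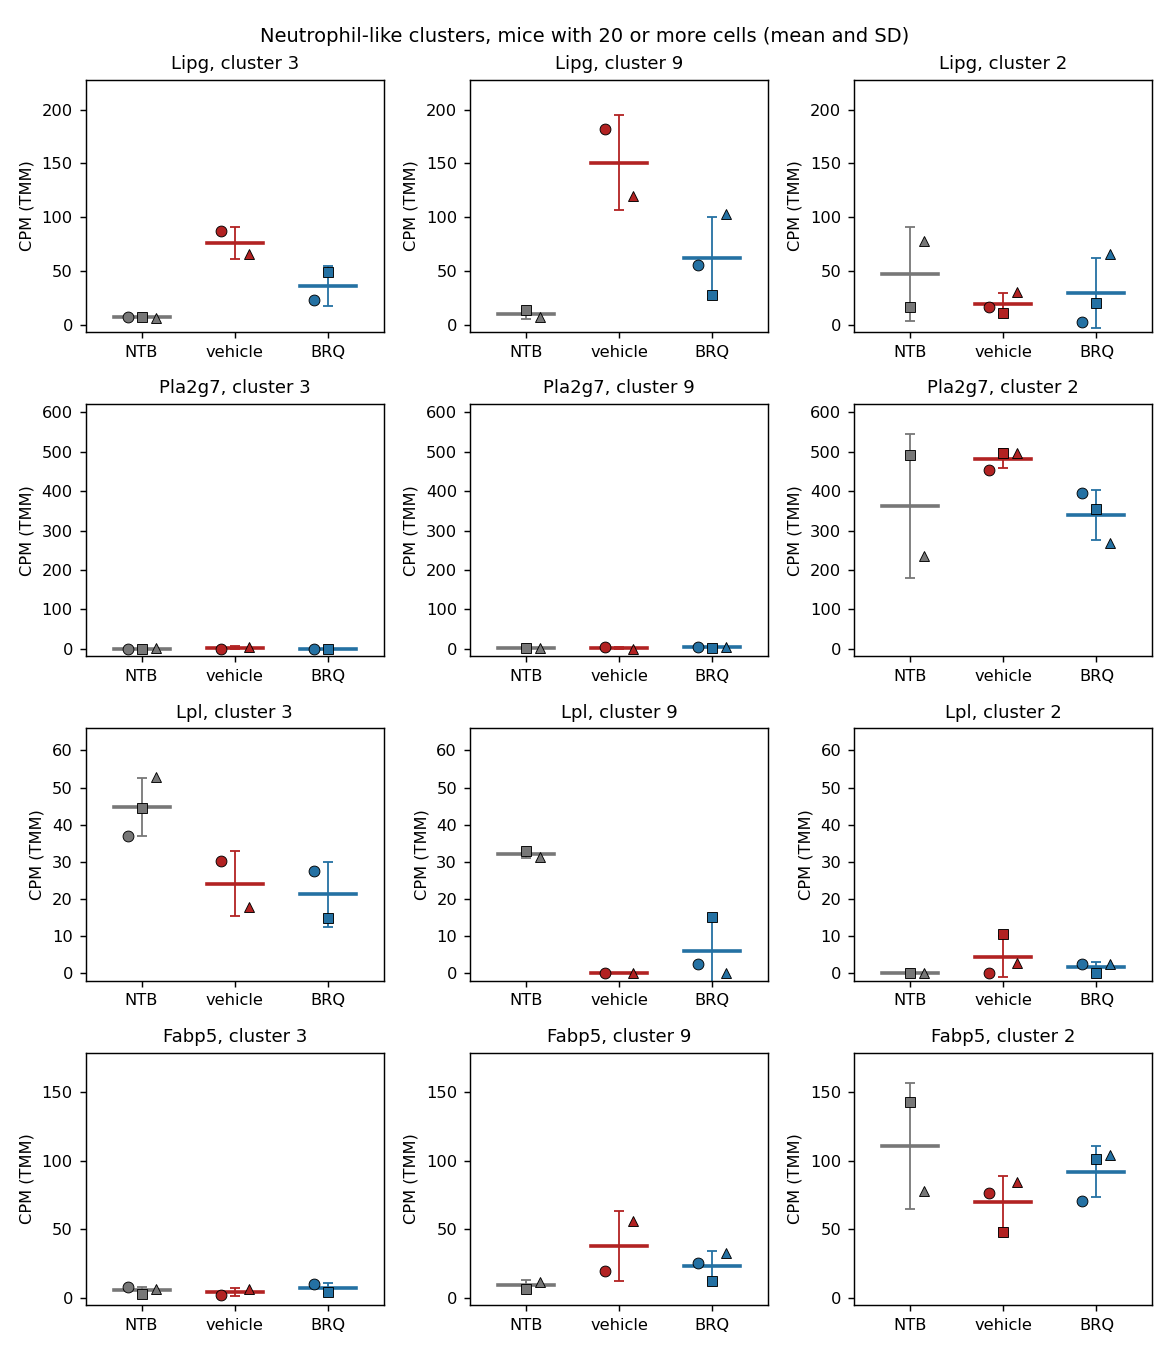
CPM on the TMM scale (vertical axis) of Lipg, Pla2g7, Lpl and Fabp5 (rows) in neutrophil-like clusters 3, 9 and 2 (columns) for NTB, vehicle and BRQ, with 1 point per mouse with 20 or more cells, the symbol giving the pool, and bars giving the mean and SD. Lipg in clusters 3 and 9 was higher in vehicle (65.7 to 182.2) than in NTB (5.78 to 13.2), and Pla2g7 was at 234.4 or more in each mouse shown for cluster 2 and at 5.97 or less in clusters 3 and 9.

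Lpl in neutrophil-like cells was at 37.5, 40.7 and 51.3 in NTB mice, 11.8, 16.6 and 3.95 in vehicle mice and 17.0, 14.6 and 3.62 in BRQ mice. It fell by 2.20 ± 0.45 in vehicle (adjusted p = 0.00709) and by 1.84 ± 0.38 in BRQ (adjusted p = 0.0136, and 0.0521 and 0.118 without NTB mouse 2 or 3). Within cluster 3, the difference of vehicle from NTB was smaller and did not pass the test (-0.85 ± 0.35, adjusted p = 0.425), while BRQ was lower than NTB (-1.11 ± 0.27, adjusted p = 0.013). In cluster 9, Lpl was at 0 in both vehicle mice and lower in BRQ than in NTB (-2.53 ± 0.71, adjusted p = 0.0228).

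Fabp5 was at 9.68, 5.92 and 8.08 in NTB, then 21.6, 24.9 and 56.9 in vehicle, and 20.9, 18.4 and 58.5 in BRQ neutrophil-like cells, with mouse 3 the highest in both groups with tumors. It rose by 2.22 ± 0.51 in vehicle (adjusted p = 0.0128) and by 2.06 ± 0.49 in BRQ (adjusted p = 0.0254). The vehicle call was lost without NTB mouse 2, NTB mouse 3 or vehicle mouse 3 (0.0574, 0.07 and 0.122) and the BRQ call without any single NTB mouse or vehicle mouse 2 (0.0506 to 0.154). Within cluster 2 the signs turned (-0.45, adjusted p = 0.706, and -0.15, adjusted p = 0.974), and within cluster 9 they did not (1.75, adjusted p = 0.31, and 1.27, adjusted p = 0.258), where both groups lay above NTB without passing the test. Mgll was at 29.0, 23.3 and 25.4 in NTB mice, 9.41, 2.77 and 15.8 in vehicle mice and 16.6, 17.5 and 14.5 in BRQ mice. It fell in vehicle by 1.23 ± 0.30 (adjusted p = 0.0174, and 0.0742 and 0.0501 without NTB mouse 3 or vehicle mouse 1), and within clusters 2, 3 and 9 the difference was -1.46, -0.94 and -1.54 and did not pass the test (adjusted p = 0.42, 0.603 and 0.298).

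Plin2 was at 79.9, 48.1 and 46.7 in NTB, then 68.2, 110.9 and 168.3 in vehicle, and 70.3, 63.8 and 124.9 in BRQ, with overlap between all groups. Its difference of vehicle from NTB (1.04 ± 0.35, adjusted p = 0.0649) passed with the pool as a block (0.99, adjusted p = 0.0284). Mogat2 was at 31.5, 34.5 and 27.8 in NTB mice, 27.3, 11.1 and 11.9 in vehicle mice and 17.0, 19.8 and 6.04 in BRQ mice, and BRQ against NTB (-1.08 ± 0.35, adjusted p = 0.0897) likewise passed with the block (-1.23, adjusted p = 0.00804).

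In monocyte-like cells, with 33 to 330 cells per mouse, 3 genes were tested. For vehicle against NTB none was called, beside 2.87% of all genes, 2 had an unadjusted p under 0.05 and DESeq2 called 1. For BRQ against vehicle, 1 was called, beside 4.87%, and 1 for BRQ against NTB, beside 2.9%. Fabp5 was at 265.7, 298.9 and 276.3 in NTB, then 375.7, 388.8 and 312.9 in vehicle, and 261.4, 264.5 and 233.9 in BRQ. Vehicle lay above both other groups, and Fabp5 fell in BRQ against vehicle by 0.50 ± 0.10 (adjusted p = 0.00252). The HSC/MPP list (9 markers, none at 0) was summed to 179.8 to 258.9 CPM in NTB monocyte-like cells, 178.8 to 204.8 in vehicle and 265.3 to 276.7 in BRQ, with BRQ the highest, and its part was not tested. Vehicle against NTB was 0.34 ± 0.10 (adjusted p = 0.064, and 0.0175 with the pool as a block). Lpl was at 9.16, 5.94 and 12.6 in NTB mice, 3.17, 6.27 and 0.531 in vehicle mice and 3.26, 2.22 and 1.43 in BRQ mice. It fell in BRQ against NTB by 2.03 ± 0.46 (adjusted p = 0.0134), a call lost without NTB mouse 3 or BRQ mouse 3 (0.272 and 0.0572). DESeq2 called 0 of the 3 genes for BRQ against NTB and gave 1 no adjusted p. In these cells the macrophage list (Mertk at 0, median marker at 0.948 CPM) was summed to 29.6 to 52.4 CPM in NTB, 11.3 to 21.5 in vehicle and 18.0 to 20.4 in BRQ, and C1q to 5.51, 1.04 and 1.38, lower where Lpl was lower, and their part was not tested. The difference of vehicle from NTB for Lpl passed only with the pool as a block (-1.69 ± 0.51, adjusted p = 0.0654, and -1.94, adjusted p = 0.0352, with it).

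HSC/MPP-like and erythroid-like cells were fitted without vehicle mouse 2, which had under 20 cells of each. In HSC/MPP-like cells, 2 genes were tested, edgeR and DESeq2 called none in any comparison, and 1, 0 and 1 had an unadjusted p under 0.05, beside 1.94%, 0.00978% and 1.4% of all genes called by edgeR. Fabp5 was at 146.4, 147.5 and 143.4 in NTB, 197.8 and 188.2 in vehicle mice 1 and 3 and 219.0, 168.2 and 156.3 in BRQ, with NTB below the others (0.42 ± 0.14, adjusted p = 0.123 for vehicle, and 0.32 ± 0.12, adjusted p = 0.209 for BRQ). In erythroid-like cells, 4 genes were tested, edgeR and DESeq2 called none, and 1, 2 and 1 had an unadjusted p under 0.05, beside 0.0122%, 0% and 0.0609%. Lipg there was at 12.6, 1.22 and 3.46 in NTB, 11.1 and 44.4 in vehicle mice 1 and 3 and 3.50, 1.85 and 16.1 in BRQ, with overlap between groups (2.45 ± 0.75, adjusted p = 0.313 for vehicle against NTB). Macrophage-like cells were too few per mouse for a test, and their pooled Lpl was 757.8 (668.3 to 856.0) in NTB, 643.3 (503.3 to 810.1) in vehicle and 969.7 (858.3 to 1092.0) in BRQ.

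To place the 8 genes in their pathways, 157 other lipid genes in 9 lists were followed in GMPs, of which 115 passed the filter. For vehicle against NTB, 17 of them (14.78%) were called, 12 higher and 5 lower, for BRQ against vehicle 27 (23.48%), 6 higher and 21 lower, and for BRQ against NTB 8 (6.957%), 2 higher and 6 lower. Over all genes tested in GMPs the shares were the 11.3%, 13.4% and 6.01% given before. The median log2 fold change of the lists was 0.05, -0.08 and 0.01, and of all genes -0.01, 0.00 and 0.00. With the pool as a block, 26, 38 and 15 were called, beside 1691, 2108 and 1216 of all 10331 genes. Without NTB mouse 2 the counts for the comparisons with NTB were 6 and 2, beside 662 and 227 of 10861 genes, and without NTB mouse 3 they were 8 and 4, beside 538 and 328 of 10839.

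Cholesterol synthesis, the longest list, had all 23 genes tested. In vehicle against NTB, 21 had a higher mean and 5 were called, all higher, with a list median of 0.43. Without NTB mouse 2, and likewise without NTB mouse 3, the count was 2. In BRQ against vehicle, 21 were lower and 11 were called, all lower, with a median of -0.44. For BRQ against NTB, edgeR and DESeq2 called none, edgeR with the pool as a block called 2, 4 had an unadjusted p under 0.05, and the median was -0.17. By share of genes tested, 47.83% of the list was called for BRQ against vehicle, the highest of the 9 lists. For vehicle against NTB it was 21.74%, below triglyceride synthesis (3 of 10), lipid droplet (2 of 8) and fatty acid synthesis (3 of 13). Fdps, which makes farnesyl diphosphate, was at 76.2, 84.5 and 68.2 CPM in NTB, then 136.9, 157.0 and 142.4 in vehicle, and 66.8, 57.4 and 51.0 in BRQ. Vehicle lay above both other groups. It rose by 0.92 ± 0.12 (edgeR adjusted p = 2.53e-05) in vehicle and fell by 1.30 ± 0.10 (edgeR adjusted p = 5.7e-09) in BRQ against vehicle, and neither call was lost when any 1 mouse was left out. Ebp, a sterol isomerase, fell by 0.84 ± 0.11 in BRQ against vehicle (edgeR adjusted p = 1.8e-05). Its rise in vehicle (0.52 ± 0.14, edgeR adjusted p = 0.0209) was lost without NTB mouse 2, NTB mouse 3 or vehicle mouse 1 (0.0684 to 0.257).

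**Figure D5:**
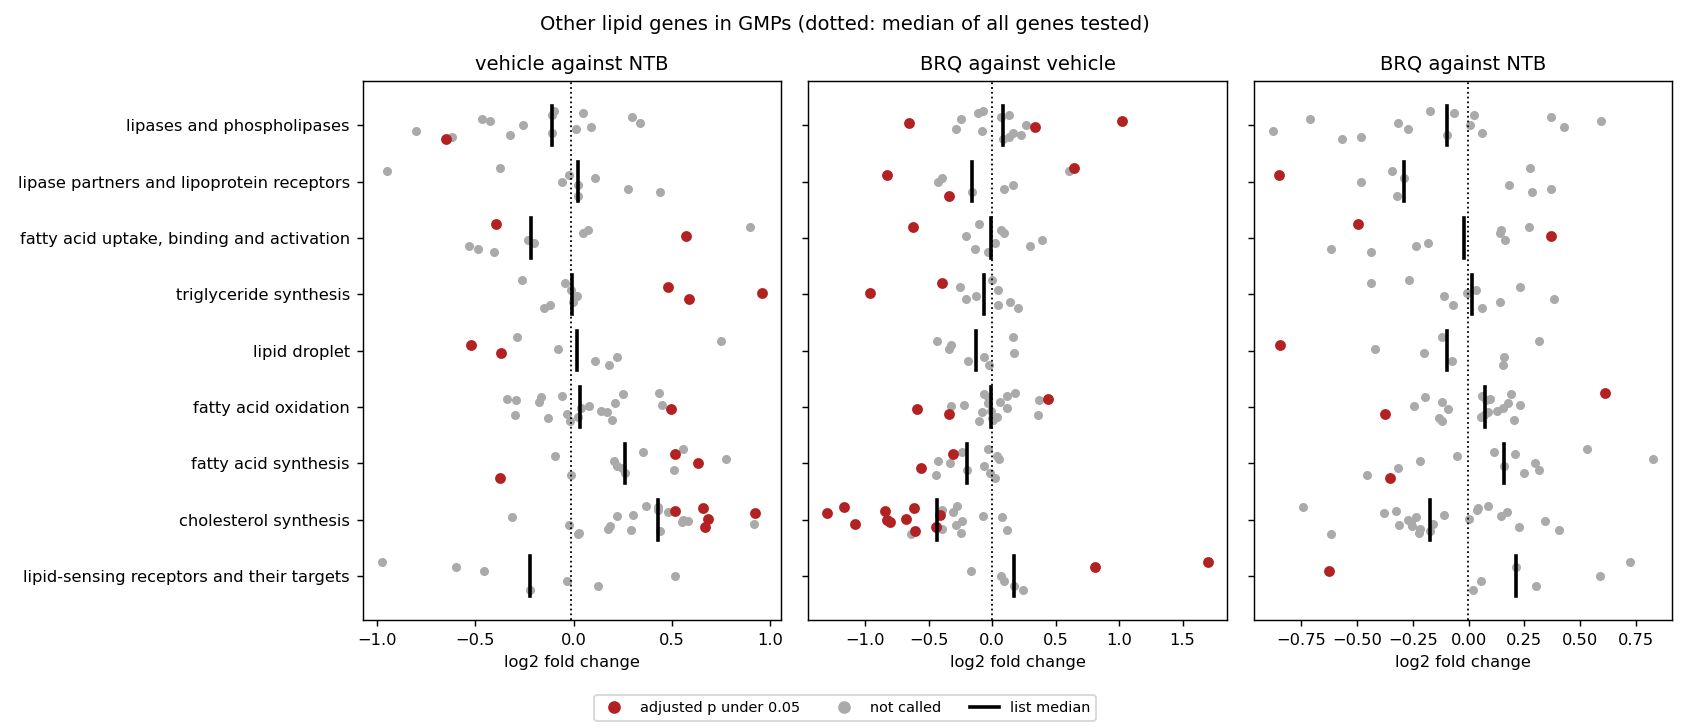
Log2 fold change in GMPs (horizontal axis) of the other lipid genes tested, by list (rows), for the 3 comparisons, with red points for an edgeR adjusted p under 0.05, black bars for the list median and a dotted line for the median of all genes. Cholesterol synthesis had its median at 0.43 for vehicle against NTB and at -0.44 for BRQ against vehicle.

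Triglyceride synthesis, the pathway of Mogat2, had 10 genes tested, with 3 called higher in vehicle than in NTB and 2 lower in BRQ than in vehicle. Without NTB mouse 3 the first count was 1, without NTB mouse 2 or vehicle mouse 1 it was 2, and without vehicle mouse 1 or 2 the second was 1. Dgat2, which adds the last fatty acid to triglyceride, was at 18.5, 23.8 and 24.5 in NTB mice, 37.7, 48.8 and 51.9 in vehicle mice and 21.2, 18.8 and 28.0 in BRQ mice. It rose by 0.96 ± 0.20 in vehicle (edgeR adjusted p = 0.00242) and fell by 0.97 ± 0.14 in BRQ against vehicle (edgeR adjusted p = 5.21e-05), and no single mouse removed either call. Dgat2 thus had the order of groups that Lipg had, and not that of Mogat2. Gpat4, which starts glyceride synthesis, rose in vehicle by 0.59 ± 0.16 (edgeR adjusted p = 0.0207), a call lost without NTB mouse 2 or 3 (0.103 and 0.0812).

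In fatty acid synthesis, 2 of 13 genes were called higher and 1 lower in vehicle against NTB, 2 lower in BRQ against vehicle, and 1 lower in BRQ against NTB. With the pool as a block, 6, 6 and 2 were called in these comparisons. The call in BRQ against NTB was lost without any NTB mouse, vehicle mouse 2 or BRQ mouse 3. Without NTB mouse 1 or 2 none was called in vehicle against NTB, and leaving out any 1 mouse gave 1 to 3 calls in BRQ against vehicle. Fasn, the fatty acid synthase, rose in vehicle by 0.63 ± 0.17 (edgeR adjusted p = 0.0184, lost without NTB mouse 1, NTB mouse 2 or vehicle mouse 3 at 0.0655 to 0.103). Hsd17b12, of the fatty acid elongation cycle, fell in BRQ against vehicle by 0.56 ± 0.10 (edgeR adjusted p = 0.000338). In fatty acid oxidation, 1 of 20 genes was called higher in vehicle, 1 was higher and 2 were lower in BRQ against vehicle, and 1 was higher and 1 lower in BRQ against NTB. Leaving out 1 mouse gave 0 to 2, 1 to 3 and 0 to 2 calls in these comparisons. Eci1, an isomerase for unsaturated fatty acids, fell in BRQ against vehicle by 0.59 ± 0.11 (edgeR adjusted p = 0.00076). Its rise in vehicle (0.49 ± 0.15, edgeR adjusted p = 0.0338) was lost in 5 of the 9 fits without 1 mouse, those without any NTB mouse, vehicle mouse 1 or vehicle mouse 2 (0.0545 to 0.25). Acaa2, the mitochondrial thiolase, rose in BRQ against NTB by 0.61 ± 0.14 (edgeR adjusted p = 0.00989, lost without NTB mouse 2 or 3 at 0.121 and 0.0877).

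Among 10 genes of fatty acid uptake, binding and activation, the list of Fabp5 and Cd36, Dbi, which binds acyl-CoA, rose by 0.57 ± 0.09 in vehicle (edgeR adjusted p = 0.000273). In BRQ against NTB it rose by 0.37 ± 0.09 (edgeR adjusted p = 0.0157, lost without NTB mouse 2, NTB mouse 3 or BRQ mouse 1 at 0.064 to 0.104). Acsl1, which activates fatty acids, fell by 0.50 ± 0.10 in BRQ against NTB (edgeR adjusted p = 0.00464) and by 0.39 ± 0.11 in vehicle (edgeR adjusted p = 0.0179, lost without NTB mouse 2, NTB mouse 3 or vehicle mouse 1 at 0.059 to 0.0692). Among 8 genes of the lipid droplet, the list of Plin2, G0s2, an inhibitor of triglyceride lipase, fell by 0.84 ± 0.16 in BRQ against NTB (edgeR adjusted p = 0.00278). Its fall in vehicle (-0.52 ± 0.17, edgeR adjusted p = 0.0441) was lost in each of the 6 fits without 1 NTB or vehicle mouse (0.0621 to 0.155). That of Hsd17b11, a dehydrogenase of the droplet surface (-0.37 ± 0.11, edgeR adjusted p = 0.0263), was lost without NTB mouse 1 or 2 or any vehicle mouse (0.0517 to 0.106).

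The lists closest to Lipg and Lpl follow. Of 15 other lipases and phospholipases, 1 was called lower in vehicle against NTB, and 2 were called higher and 1 lower in BRQ against vehicle. The first call was lost without NTB mouse 2, NTB mouse 3 or any vehicle mouse, and of the 2 higher calls none was left without vehicle mouse 1 and 1 without vehicle mouse 2, vehicle mouse 3 or BRQ mouse 1. Pla2g12a, a secreted phospholipase, fell in BRQ against vehicle by 0.65 ± 0.10 (edgeR adjusted p = 0.000206), and Pla2g4a, the cytosolic phospholipase of arachidonate release, rose by 0.34 ± 0.11 (edgeR adjusted p = 0.0357, lost in 5 of 9 fits, those without any vehicle mouse, BRQ mouse 1 or BRQ mouse 3, at 0.071 to 0.161). Of 9 lipase partners and lipoprotein receptors, 1 was higher and 2 lower in BRQ against vehicle (33.33%), and 1 was lower in BRQ against NTB. Without vehicle mouse 2 or 3 the first were 0 and 1, without BRQ mouse 2 they were 0 and 2, and the last was lost without NTB mouse 2, NTB mouse 3 or BRQ mouse 1. Sel1l, needed for the folding of lipoprotein lipase, fell by 0.34 ± 0.09 (edgeR adjusted p = 0.0167, lost without vehicle mouse 2 or 3 at 0.0613 and 0.108). Of 7 lipid-sensing receptors and targets, 2 were called higher in BRQ against vehicle. They were Abcg1, a cholesterol exporter (1.70 ± 0.32, edgeR adjusted p = 0.000978), and Mylip, a ubiquitin ligase (0.81, edgeR adjusted p = 0.00659). Abcg1 and Mylip were named after their values were seen. Nr1h2, the oxysterol receptor LXR beta, fell in BRQ against NTB by 0.62 ± 0.15 (edgeR adjusted p = 0.0162, lost without NTB mouse 1 or 2 at 0.0618 and 0.121).

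The genes whose pattern over the 9 GMP sums was most like that of each lead gene, by Pearson's r of log2 CPM, were Ssr1, Hnrnpa3 and Lyrm9 for Lipg (0.956, 0.955 and 0.951) and Grcc10, Tcirg1 and Wdfy1 for Lpl (0.985, 0.973 and 0.973). They were Cbx1, Fkbp1a and Chchd1 for Fabp5 (0.974, 0.967 and 0.965), and mt-Nd4, Ets1 and mt-Nd3 for Mogat2 (0.969, 0.962 and 0.957). Each r is a description over the 9 sums, which share pools and group differences.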

How the data were processed

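Single-cell RNA libraries (10x Genomics 3' v3.1, with hashtag antibodies) of 3 pools were deposited by the authors as raw UMI counts per gene and barcode. Per the labels, reads were processed with Cell Ranger 6.0.0 on mm10. Cells with 500 to 7500 detected genes (the study's limits, read as genes) and at most 15% mitochondrial UMIs were kept. Hashtags were called with HTODemux (Seurat 5.3.0, quantile 0.99), called doublets were left out, and Scrublet calls were kept in the main fit. Cells were clustered with scanpy 1.11.5 (2000 variable genes, 30 components, 20 neighbours, Leiden resolution 0.8), without 165 lipid genes (the 8 and the 157 of the lists), and named from marker lists. GMPs had ln(1 + Ms4a3 UMIs per 10000) above 3, and other classes left them out. Counts were summed per mouse (20 or more cells outside GMPs, 2 or more mice per group) and tested with edgeR 4.0.16 (filterByExpr, TMM, quasi-likelihood, two-sided, all groups in 1 fit, adjusted p under 0.05). CPM (UMIs per 1000000 UMIs) divide by the TMM-scaled total for the values of a gene per mouse. For levels pooled over cells, and for marker lists, C1q and Kit, they divide by the unscaled total. The 3 mice per group are separate animals.

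The 8 genes and all lists were chosen with earlier results of these data known. Named by rule were the 8 genes, at most 2 called genes per lipid list (the largest changes at 20 or more CPM without overlap between groups), and the 3 genes most like each of 4 lead genes. A mouse shares its pool, deposited as 1 count matrix, with 1 mouse of each other group, so the pool pairs mice by design. The correlation of deviations from group means in GMPs had a median of 0.0881 over 9 same-pool pairs, with a lowest value of -0.019, and of -0.0456 over 18 other pairs. Shares of cells came from cells thinned to 1000 UMIs. Alternatives were DESeq2 1.42.0, RLE factors, no filter on low counts, the pool as a block, hashtags by ratio, limits read as UMIs, removal of Scrublet-marked cells, other GMP definitions, a minimum of 50 cells, and each mouse left out. The test was tested on simulated data.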

Additional observations from a re-analysis of the deposited data

Results flagged for a closer look

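The difference of BRQ from NTB for Fabp5 went in opposite directions in different cell classes, with every BRQ mouse on one side of every NTB mouse. The log2 fold change was 0.32 in HSC/MPP-like cells and 2.06 in neutrophil-like cells, where all BRQ mice were higher, and -0.16 in monocyte-like cells, where all BRQ mice were lower. The difference between the classes was not tested. The neutrophil-like value alone passed the test within its class, and it was -0.15 in cluster 2 and 1.27 in cluster 9 of that class, neither past the test.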

How the results depend on the processing

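The counts of calls were 6, 2 and 4 for the 8 genes in GMPs (vehicle against NTB, BRQ against vehicle, BRQ against NTB), where they were chosen and nothing is read from the count, 9, 1 and 8 for the same genes in other classes and 17, 27 and 8 for the lipid lists. With the pool as a replicate block, the calls moved to 4 for the 8 genes in GMPs (BRQ against vehicle), 3 in other classes (BRQ against vehicle), and 26 and 15 for the lists (both comparisons with NTB), and 38 list genes were called for BRQ against vehicle. Reading the limits as UMIs per cell kept 8 to 89 GMPs per mouse, with all 9 mice in the fit, and edgeR called 0 of the 8 genes and of the list genes there (251, 139 and 180 of all genes had an unadjusted p under 0.05). Hashtags by ratio gave 14 and 2 in other classes (vehicle against NTB, BRQ against vehicle) and 27 and 14 list genes (comparisons with NTB). Without the filter on low counts, 15 and 3 were called in other classes (vehicle against NTB, BRQ against vehicle), and without Scrublet-marked cells 2 (BRQ against vehicle). An Ms4a3 limit of 2.5 called 37 and 17 list genes (comparisons with NTB), beside 2509 and 1744 of all 11117 genes, and GMP-like clusters 33 (vehicle against NTB), beside 2252 of 11046, against 1169 and 621 of 10331 as reported. Leaving out 1 mouse gave 3 to 6, 2 to 3 and 3 to 4 for the 8 genes in GMPs, 6 to 12, 1 to 3 and 2 to 10 in other classes, and 6 to 23, 19 to 27 and 2 to 11 list genes. Without NTB mouse 3 the counts for vehicle against NTB were 3, 6 and 8 and for BRQ against NTB 3, 2 and 4. Without vehicle mouse 1, 3 of the 8 genes were called in GMPs for vehicle against NTB, without NTB mouse 2 the lists gave 6 and 2 in the comparisons with NTB and other classes 5 for BRQ against NTB, and without BRQ mouse 3 other classes gave 3 for BRQ against vehicle. Signs turned in neutrophil-like cluster 2 alone, a choice made after seeing the data, for Lipg (-1.25 for vehicle and -0.55 for BRQ against NTB), Pla2g7 (-0.024 for BRQ against NTB) and Fabp5 (-0.45 and -0.15), and with limits on UMIs for Fabp5 in GMP-like cells below the Ms4a3 limit (-0.58 for vehicle against NTB). In the GMP-like clusters, the log2 fold change of Mogat2 for vehicle against NTB was -0.05 and that of Fabp5 for BRQ against vehicle 0.01. The causes were not tested. With limits on UMIs, monocyte-like and erythroid-like cells could not be tested, nor erythroid-like cells with hashtags by ratio or without Scrublet-marked cells. The NTB values rested on 88 to 177 GMPs per mouse.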
